A study of Salmo salar with 6 samples.

Results

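The genes described here build, crosslink, bind or degrade the extracellular matrix in Atlantic salmon (Salmo salar) head kidney: collagens, laminins, fibulins, small leucine-rich proteoglycans, thrombospondins, lysyl oxidases, integrins, matrix metalloproteinases (MMPs), their tissue inhibitors (TIMPs), and the ADAM and ADAMTS proteases. They were chosen by name and not by a cut on measured values, but with earlier results of these data known. The RefSeq accession in each probe name was matched to a salmon gene symbol. Symbols with the prefixes of these families were kept, with the thrombocyte integrin gene itga2b left out. The rule found 77 of the 25460 genes matched on the array, of which 8072 carry a gene name and the others a locus number only. Each of the 77 genes had 1 probe. Family members that RefSeq lists by locus number only were not reached by the rule, and the names dcn, fn1 and sparc matched no probe and are not analysed here. A total of 3 members entered by prefix or by a partner's name: loxe3, named as a lipoxygenase, loxhd1a, named for a lipoxygenase homology domain, and itgb1bp1, which encodes a protein that binds the tail of integrin beta-1.

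The extracellular matrix is the protein scaffold around cells. Fibrillar collagens give it strength, collagen IV and laminins form the thin basement membranes under endothelium and epithelium, and integrins, each a pair of an alpha and a beta chain, anchor cells to it and signal inward. MMPs, ADAMs and ADAMTS enzymes cut matrix and cell-surface proteins and are held in check by TIMPs. In bony fish the head kidney is a blood-forming, immune and endocrine organ without nephron function in most adults, and its matrix and stroma carry the developing blood cells, while MMP9 and MMP13 are also made by the myeloid cells it holds.

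The study asked how a plant-derived feed additive, here called MPLE as in the labels, acts on gene expression in this organ. The additive is an extract of sage and lemon verbena that holds ursolic acid, other triterpenes, verbascoside and polyphenols. Control fish had the basal diet with 0% MPLE and the other fish had the same diet with 0.1% MPLE, both for 133 days. All fish were unvaccinated juveniles, described as 252 g, from 1 commercial farm, and all had hydrogen peroxide and formaldehyde baths after transport. RNA of single fish was combined into pools of 6 fish, with 3 pools for each diet, and each pool was read on its own one-colour array. A pool hides the spread between its fish. Nothing says that the pools of a diet came from separate tanks, so the p-values below measure how pools vary, along with how arrays and labelling vary. The tissue is a mixture, and fewer cells of a type and less RNA per cell cannot be told apart in it.

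A level below is the log2 of a probe's background-corrected signal minus the 75th percentile of its array, so 0 is the 75th percentile, and a change is the MPLE mean minus the control mean on that log2 scale. Levels of different probes are not comparable with each other. The 75th percentile itself was 138 signal units in control pool 3 and 394 to 710 in the other 5 pools, and 18046 of 42438 spots were well above background in control pool 3 against 24841 to 33020 in the others. Each array lay on a slide of its own, no slide or slide position held both diets, and the scans of all control arrays came first. Diet cannot be told apart from slide, position and order of scanning. The interrenal markers star and hsd3b1, of the steroid-making cells of the head kidney, were well above background on all 6 arrays, whereas cyp17a1 was so on 1 of 3 MPLE arrays and on 0 control arrays. Of the chromaffin markers, pnmt was tested, while chga and th were not above background on all arrays of either diet.

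Of the 77 members, 43 were tested with limma because their signal cleared the background test on all 3 arrays of one diet or of both, and 33 of these were well above background on all 6 arrays. A further 9 entered through the MPLE arrays alone and 1 through the control arrays alone. Those 10 missed the background test on at least 1 array of the other diet, so the filter favoured members that were higher in the diet that let them in. The counts that follow are therefore led by the 33. None of the 43 passed an adjusted p of 0.05 (Benjamini-Hochberg over 23130 probes, of which 0.467% passed, and 0.219% of the 16868 probes well above background on all 6 arrays). At an unadjusted limma p under 0.05, 4 of the 33 were higher with MPLE, or 12.1%, against 7.46% of those 16868 probes, and 4 were lower, also 12.1%, against 6.65%. The levels of the 3 control and 3 MPLE pools did not overlap for 5 members that were higher and 5 that were lower, 15.2% each, against 12.5% and 14.5% of the probes. These shares lie near the background of all probes. The median change of the 33 members was 0.13 and that of the probes was -0.13.

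Over all 43 tested members, 7 were higher and 5 lower at an unadjusted limma p under 0.05, or 16.3% and 11.6%. The shares of all probes tested were 11.5% and 5.89%. Among the 7, itgb5, timp3 and adamts9 had entered through the MPLE arrays alone. Among the 5, col4a5 had entered through the control arrays alone. The median change was 0.20 against -0.01 for all probes tested. The split between the directions moved with the processing of the arrays, by centring or by the signal values and background correction used. With each array centred on its median it was 10 higher and 3 lower, or 23.3% and 6.98% of the 43, against 9.62% and 3.89% of all probes. With the deposited series values it was 6 and 2, against 9.70% and 1.95%. After normexp background correction it was 3 and 4, or 6.98% and 9.3% of the 43, against 6.83% and 10.6%. With centring on spike-in probes it was 2 and 12, or 4.65% and 27.9% of the 43, against 4.02% and 31.6% of all probes. The median change of all probes itself was -0.46 with spike-in centring, -0.21 with normexp and 0.22 with the series values.

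**Figure D1:**
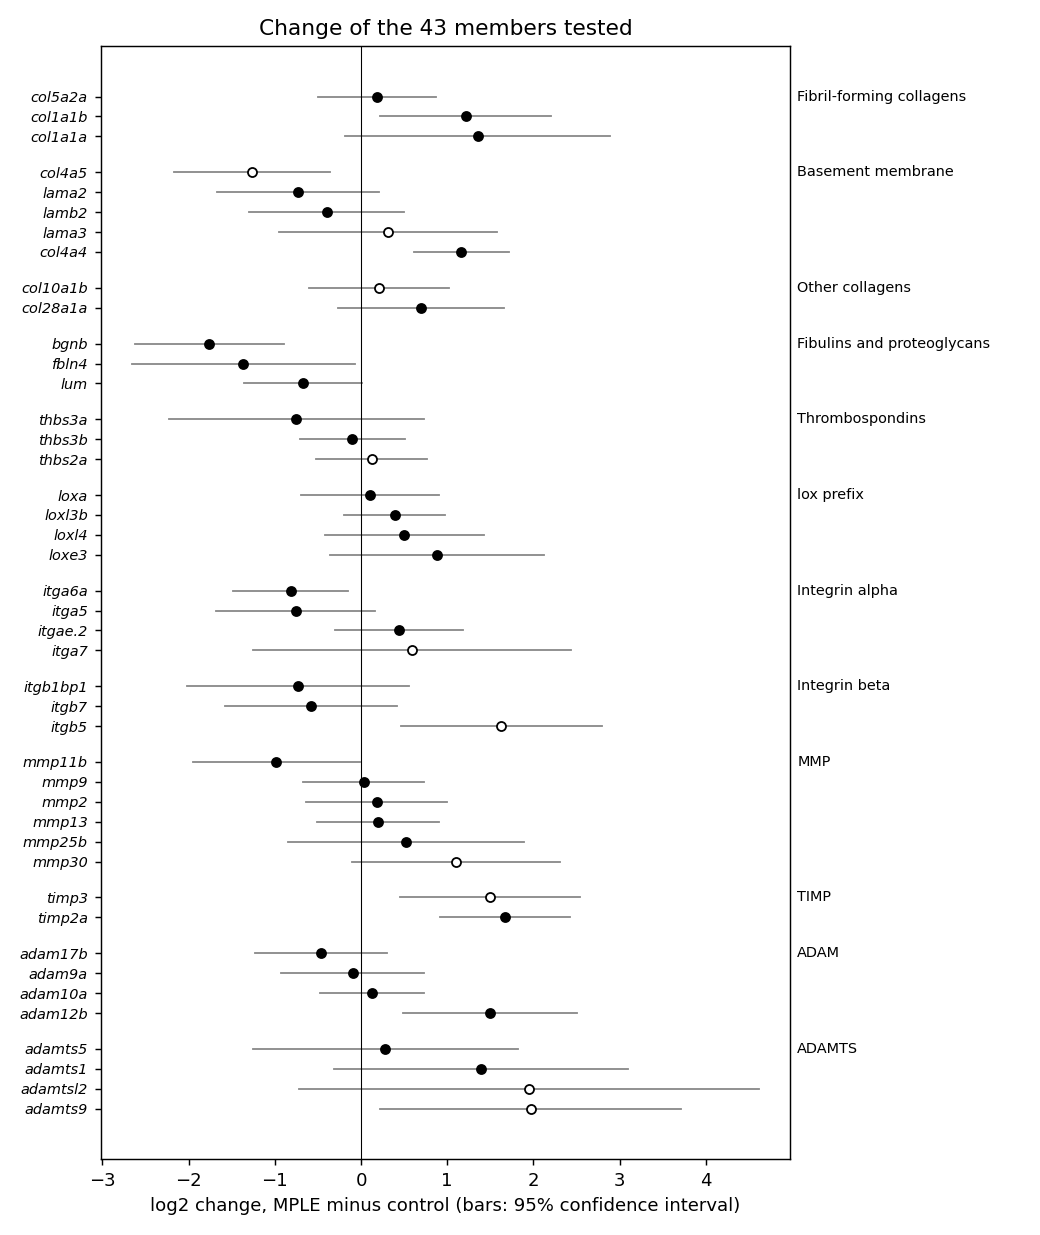
Log2 change (MPLE minus control, horizontal axis) of each of the 43 tested members, grouped by role, with the 95% confidence interval of limma as a bar. Filled circles are members well above background on all 6 arrays and open circles those that were so on every array of 1 diet only. The intervals of timp2a, col4a4 and adam12b lie above 0 and that of bgnb below it, while most others cross 0.

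The fibril-forming collagens were read by 3 tested members of 5 on the array, all well above background on all 6 arrays, and all had positive changes. The gene col1a1b, which encodes a chain of collagen I, the main fibre of skin, bone and stroma, read 3.49, 3.35 and 2.15 in control pools 1 to 3 and 3.78, 4.52 and 4.34 in MPLE pools 1 to 3. Every MPLE pool lay above every control pool, by a narrow margin over control pools 1 and 2. The change was 1.21 (SE 0.42) with a limma p of 0.0228, adjusted p = 0.213, and it was 0.79 without control pool 3. Its paralogue col1a1a read 2.15, 1.80 and -0.31 in the control pools against 1.99, 2.92 and 2.78 in the MPLE pools. Here control pool 3 stood far below the rest and the diets overlapped. The change of 1.35 (adjusted p = 0.332) was 0.59 without that pool. Both collagen I genes were lowest in control pool 3 and highest in MPLE pool 2. The third, col5a2a, a chain of collagen V that joins collagen I fibres, had a change of 0.19 (adjusted p = 0.738), which was -0.20 after normexp correction and -0.25 with spike-in centring. The other fibrillar members, col11a1a and col27a1b, were not well above background on any array.

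Of the basement membrane genes, 5 of 7 on the array were tested and 3 were well above background on all 6 arrays. Collagen IV chains of the type found in the glomerular basement membrane of mammals differed in sign. The gene col4a4 read -2.39, -2.03 and -2.23 in the control pools against -1.04, -0.98 and -1.14 in the MPLE pools. The pools of each diet lay close together and the diets did not overlap. The change was 1.16 (SE 0.23), with a limma p of 0.00152 and adjusted p = 0.0841, and it was 0.37 after normexp correction. By contrast, col4a5 read -2.71, -1.66 and -2.15 in the control pools against -3.01, -3.29 and -4.01 in the MPLE pools, with 2 of 3 MPLE arrays well above background. All MPLE pools lay below all control pools, the nearest pair being control pool 1 and MPLE pool 1. The gene entered the test through the control arrays alone. Its change was -1.27 (adjusted p = 0.172) and -1.13 after normexp correction.

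Laminins are the cross-shaped proteins to which cells attach in a basement membrane. The laminin chain genes lama2 and lamb2 had changes of -0.73 (adjusted p = 0.374) and -0.40 (adjusted p = 0.583). Both were highest in control pool 3, at 1.55 and 2.07, and without that pool their changes were -0.34 and 0.00. For lama3, well above background on 2 of 3 control arrays, the change was 0.31 (adjusted p = 0.766) and -0.48 after normexp correction. The laminin genes lama1 and lamb4 were not tested. The lama1 probe read -5.61, -2.89 and -1.00 in the control pools against -3.92, -5.43 and -5.90 in the MPLE pools, being well above background on 2 control arrays and 1 MPLE array.

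Proteoglycans and fibulins organise collagen and elastic fibres. All 3 of their tested members, out of 4 on the array, had negative changes, and in each the diets did not overlap. Among all probes well above background on all 6 arrays, the diets did not overlap in that direction for 14.5%. Biglycan, a small proteoglycan of the collagen network, was represented by bgnb, which read -0.38, 0.20 and -0.04 in the control pools against -2.53, -1.63 and -1.35 in the MPLE pools. The diets were well apart, and MPLE pool 1 was the lowest of all. The change was -1.76 (SE 0.37), or 3.39-fold lower with MPLE, with a limma p of 0.00184 and adjusted p = 0.09. It was -1.62 after normexp correction and ranged from -2.20 to -1.16 over all alternatives run.

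The fibulin gene fbln4, whose mammalian counterpart is needed for elastic fibre assembly, read 1.13, 1.06 and 3.08 in the control pools against 0.15, 0.58 and 0.44 in the MPLE pools. Control pool 3 was far above the other 5, and the remaining control pools were still above the MPLE pools. Its change of -1.37 (limma p of 0.0409, adjusted p = 0.268) was -0.71 without control pool 3. Lumican, which sets the spacing of collagen fibres, read 2.51, 1.82 and 2.55 for lum in the control pools against 1.56, 1.81 and 1.48 in the MPLE pools. Control pool 2 and MPLE pool 2 were nearly equal, so that the diets were separated by a margin far smaller than the spread of either. The change of lum was -0.68 (adjusted p = 0.293). The fourth gene, fbln7, was not tested and was well above background on 1 control and 2 MPLE arrays.

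Thrombospondins are secreted proteins that link matrix components and cells, and 3 of 4 members on the array were tested. For thbs3a the levels were -2.49, -2.45 and -0.35 in the control pools against -3.22, -2.13 and -2.18 in the MPLE pools. Control pool 3 alone stood above the others, and the change of -0.75 (adjusted p = 0.534) was -0.04 without it and 0.13 with array weights. Its paralogue thbs3b had a change of -0.10 (adjusted p = 0.845), and thbs2a, well above background on 2 of 3 control arrays, one of 0.12 (adjusted p = 0.82). The sign of both turned under other settings. The gene thbs4a was not tested.

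Among the 6 genes with the prefix lox, 4 were tested and all 4 were well above background on all 6 arrays. Lysyl oxidases crosslink collagen and elastin. The gene loxl3b read 5.83, 5.45 and 5.95 in the control pools against 6.08, 6.22 and 6.10 in the MPLE pools. The MPLE pools lay above all control pools, but the change was 0.39 (adjusted p = 0.429) and -0.05 with spike-in centring. The changes of loxl4 and loxa were 0.50 (adjusted p = 0.503, and -0.29 after normexp correction) and 0.10 (adjusted p = 0.882, and -0.34 with spike-in centring). The lipoxygenase-named loxe3 had a change of 0.88 (adjusted p = 0.408), which was 0.27 without control pool 3.

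Of the 8 other collagens, 2 were tested, and 6 missed the background test on at least 1 array of each diet. The change was 0.70 for col28a1a (adjusted p = 0.398) and 0.21 for col10a1b (adjusted p = 0.754, well above background on 2 of 3 control arrays). Collagen X, which col10a1b encodes, is known from cartilage that is turning to bone. After normexp correction these values were -0.45 and -0.76.

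**Figure D2:**
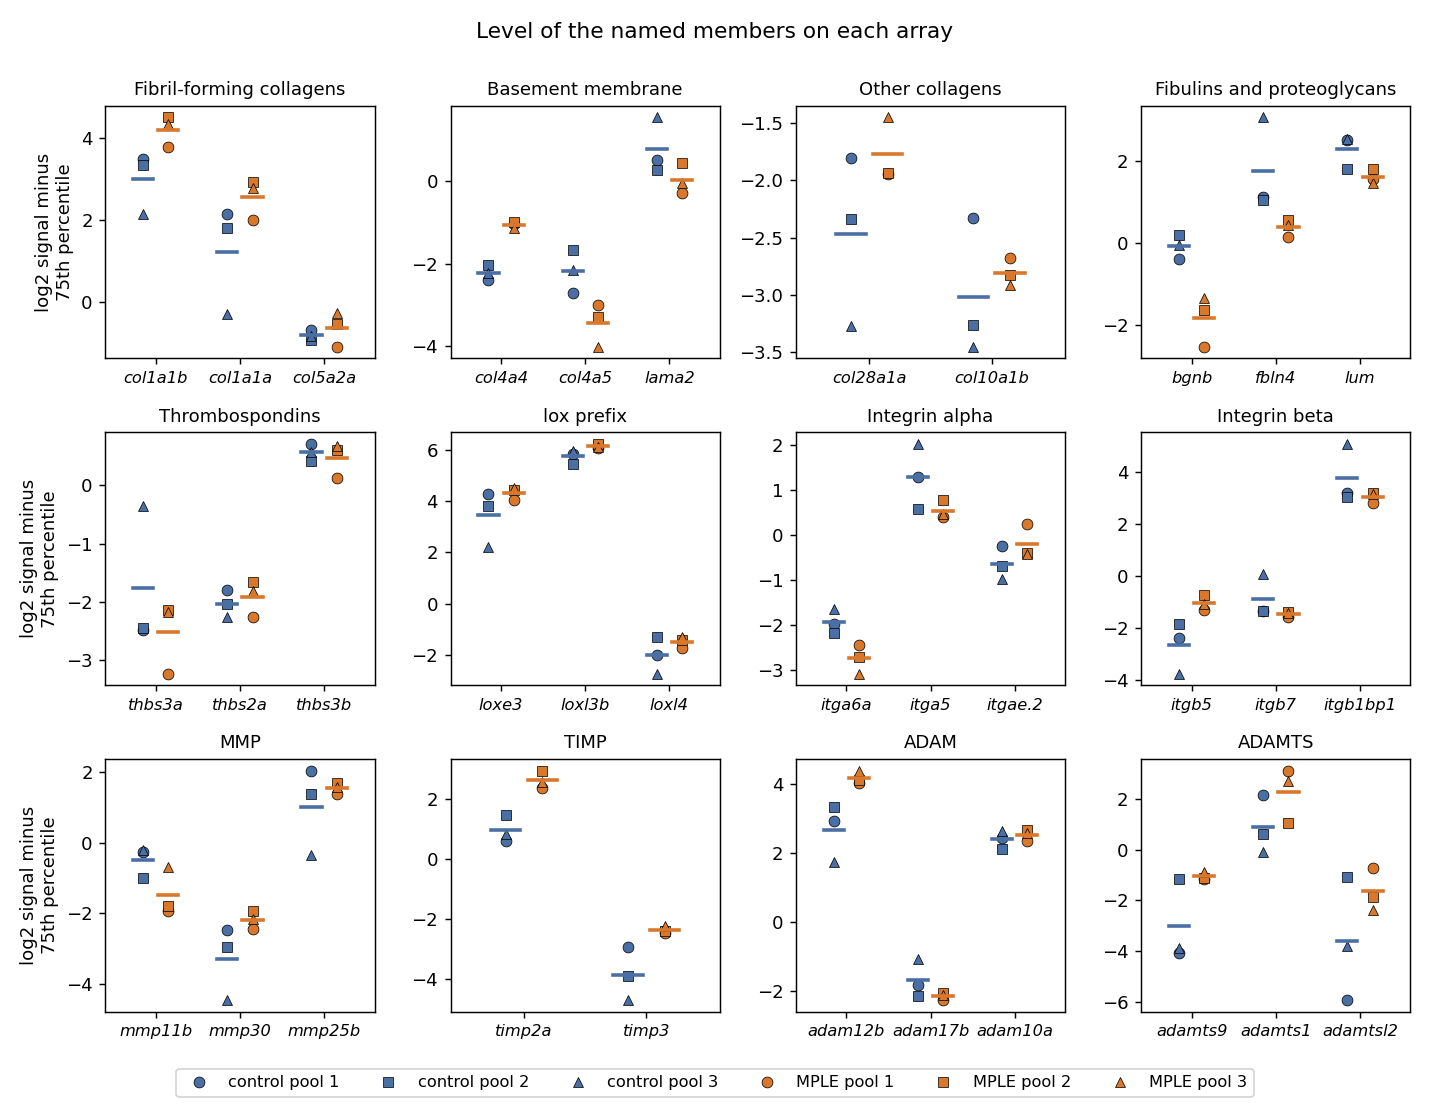
Level of the named members on each array (log2 signal minus the array's 75th percentile, vertical axis, with its own range in each panel), up to 3 genes for each of 12 role groups. Blue symbols are the 3 control pools, orange symbols the 3 MPLE pools, and bars the means. The diets are apart for timp2a, col4a4 and bgnb, whereas control pool 3, drawn as a blue triangle, is far from the other pools for col1a1a, fbln4 and thbs3a.

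Integrin alpha chains choose the ligand. Of 7 on the array, 4 were tested and 3 were well above background on all 6 arrays. The laminin receptor chain gene itga6a read -1.97, -2.17 and -1.64 in the control pools against -2.44, -2.70 and -3.08 in the MPLE pools. All MPLE pools lay below all control pools. The change was -0.81 (SE 0.28), with a limma p of 0.0235 and adjusted p = 0.215, and it was -0.67 without control pool 3. The fibronectin receptor chain gene itga5 read 1.29, 0.58 and 2.03 in the control pools against 0.39, 0.78 and 0.46 in the MPLE pools. The diets overlapped through control pool 2, and the change was -0.76 (adjusted p = 0.358), or -0.39 without control pool 3. For itgae.2, related to the mammalian chain that holds lymphocytes at epithelia, the change was 0.44 (adjusted p = 0.473) and -0.04 with array weights. The gene itga7, a laminin receptor chain of mammalian muscle that was well above background on 1 of 3 control arrays, had a change of 0.59 (adjusted p = 0.692), which was -0.50 after normexp correction and 0.02 without control pool 3.

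Of the 4 genes with the prefix itgb, 3 were tested. The gene itgb5, for a beta chain that pairs with integrin alpha-V in mammals, read -2.39, -1.85 and -3.75 in the control pools, of which 2 were well above background, against -1.30, -0.73 and -1.08 in the MPLE pools. Every MPLE pool lay above every control pool. The change was 1.63 (limma p of 0.0126, adjusted p = 0.17), and it was 1.08 without control pool 3 and 0.60 after normexp correction. The gene entered the test through the MPLE arrays alone, so its p and the lack of overlap are no separate support for a difference. The lymphocyte homing chain gene itgb7 read -1.36, -1.36 and 0.08 in the control pools against -1.57, -1.38 and -1.41 in the MPLE pools. Apart from control pool 3 the pools lay within a narrow band, and the change of -0.58 (adjusted p = 0.48) was -0.10 without that pool. In the same way itgb1bp1, at 5.10 in control pool 3 and at most 3.21 in the other pools, had a change of -0.73 (adjusted p = 0.49) and of -0.07 without it. The thrombocyte integrin gene itga2b, outside the rule, had a change of -0.97 (adjusted p = 0.226).

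The smallest limma p of all members was that of a protease inhibitor gene, timp2a. The gene timp2a, for an inhibitor of MMPs that in mammals also takes part in activating MMP2, read 0.60, 1.47 and 0.84 in the control pools against 2.38, 2.97 and 2.58 in the MPLE pools. The diets were apart, and no pool stood away from its own diet. The change was 1.67 (SE 0.32, 95% confidence interval 0.92 to 2.43), or 3.19-fold higher with MPLE, with a limma p of 0.00114 and adjusted p = 0.0769. It was 2.08 after normexp correction, 1.61 without control pool 3, and 1.23 to 2.39 over all alternatives run. The other inhibitor on the array, timp3, whose product binds to the matrix, read -2.96, -3.93 and -4.73 in the control pools against -2.46, -2.41 and -2.25 in the MPLE pools. Only control pool 1 was well above background among the controls, so timp3 entered the test through the MPLE arrays alone. The change of 1.50 (adjusted p = 0.163) was -0.04 after normexp correction.

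The MMPs were the largest family on the array with 16 members, of which 6 were tested and 5 were well above background on all 6 arrays. The gelatinase gene mmp9, known from neutrophil granules in mammals, read 7.83, 7.41 and 8.17 in the control pools against 7.54, 8.11 and 7.85 in the MPLE pools. The diets overlapped in full, and the change was 0.03 (95% confidence interval -0.68 to 0.74, adjusted p = 0.964), with a sign that turned under several settings. For the collagenase gene mmp13 the levels were 7.54, 6.97 and 7.50 in the control pools against 7.12, 7.77 and 7.71 in the MPLE pools. They overlapped as well, with a change of 0.20 (95% confidence interval -0.51 to 0.91, adjusted p = 0.732), which was 0.69 after normexp correction and -0.24 with spike-in centring. The gelatinase gene mmp2, made by stromal cells in mammals, had a change of 0.18 (95% confidence interval -0.63 to 1.00, adjusted p = 0.788), which was 0.94 after normexp correction, -0.27 with array weights and 0.01 without control pool 3. The 3 tested neutrophil markers did not share a direction: csf3r was at 1.14 (adjusted p = 0.135), lyz at 0.28 (adjusted p = 0.826) and mpx at -0.92 (adjusted p = 0.215, with control pool 3 dropped from its fit as an outlier spot). Their part in the MMP levels was not tested. The 3 MMP intervals reach well to both sides of 0, so equal levels were not shown.

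The gene mmp11b, for a stromelysin-type enzyme of stroma, read -0.27, -0.99 and -0.20 in the control pools against -1.93, -1.79 and -0.69 in the MPLE pools. The diets overlapped through control pool 2 and MPLE pool 3. The change was -0.98 (limma p of 0.0475, adjusted p = 0.282). For mmp25b, related to a membrane-anchored MMP of mammalian leukocytes, the change was 0.53 (adjusted p = 0.635) and -0.17 without control pool 3. The gene mmp30, well above background on 2 of 3 control arrays, had a change of 1.10 (adjusted p = 0.32), which was -0.28 after normexp correction.

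ADAMs release cell-surface proteins, and all 4 on the array were well above background on all 6 arrays. The gene adam12b, for a protease linked to cell fusion and adhesion in mammals, read 2.93, 3.35 and 1.74 in the control pools against 4.03, 4.10 and 4.39 in the MPLE pools. Every MPLE pool lay above every control pool, and control pool 3 was the lowest. The change was 1.50 (SE 0.43), with a limma p of 0.00972 and adjusted p = 0.153, and it was 1.58 after normexp correction and 1.03 without control pool 3. The genes adam10a and adam17b, for the main sheddases of Notch and of tumour necrosis factor in mammals, had changes of 0.13 (adjusted p = 0.798) and -0.46 (adjusted p = 0.467). Their signs turned under spike-in centring and with the deposited series values, respectively. The change of adam9a was -0.10 (adjusted p = 0.895) and 0.27 without control pool 3.

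ADAMTS proteases are secreted and several cut large proteoglycans. Of 10 on the array 4 were tested, and 2 of these entered through the MPLE arrays alone. The gene adamts9 read -4.08, -1.14 and -3.85 in the control pools against -1.17, -1.10 and -0.89 in the MPLE pools. The MPLE pools and control pool 2, the only control array well above background, lay together and the other control pools lay far below. The change was 1.97 (limma p of 0.0321, adjusted p = 0.244) and 0.44 after normexp correction. Without control pool 2 it was 2.91, with an adjusted limma p of 0.0227. The control pools left in that fit, 1 and 3, were not well above background. That p therefore compares the MPLE pools, through which the gene entered, with undetected control levels.

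The related adamtsl2, which lacks the protease domain and binds fibrillin in mammals, read -5.93, -1.07 and -3.79 in the control pools against -0.71, -1.87 and -2.37 in the MPLE pools. It had the largest spread among control pools of any tested member, and its change of 1.95 (adjusted p = 0.397) was 0.34 after normexp correction, 0.78 without control pool 1 and 3.21 without control pool 2. For adamts1 the levels were 2.15, 0.61 and -0.10 in the control pools against 3.1, 1.03 and 2.71 in the MPLE pools, a change of 1.39 (adjusted p = 0.358) with overlap between the diets. The proteoglycan-cutting adamts5 had a change of 0.28 (adjusted p = 0.829), which was -0.16 with spike-in centring.

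**Figure D3:**
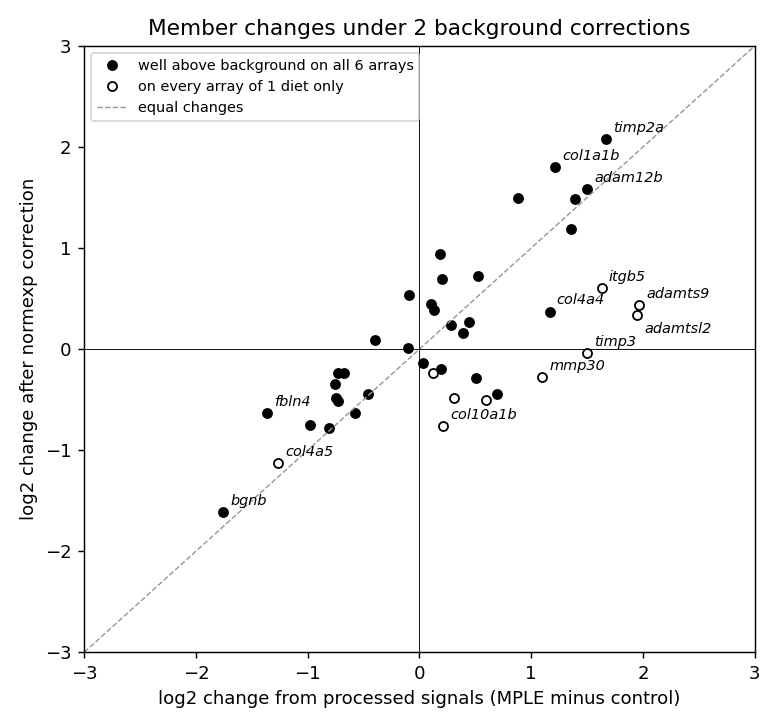
Log2 change (MPLE minus control) of the 43 tested members from the processed signals (horizontal axis) against the change after normexp background correction of the unprocessed signals (vertical axis). Filled circles are members well above background on all 6 arrays, open circles those that were so on every array of 1 diet only, and the dashed line marks equal changes. The points of timp2a, adam12b and bgnb lie near the line, whereas those of adamts9, adamtsl2, timp3, mmp30 and col4a4 lie well below it.

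The changes of many members differed between processed signals and normexp correction. That setting also added a fixed offset to all signals, while the arrays differed in scale and control pool 3 had the lowest signals. A fixed offset weighs most on dim probes and on the array with the lowest signals. Effects of background correction and of the offset cannot be told apart here, and their parts were not tested. For timp3, adamts9, adamtsl2 and mmp30, all well above background on 1 or 2 of 3 control arrays, changes of 1.10 to 1.97 from processed signals were -0.28 to 0.44 after normexp correction. For timp2a, adam12b, col1a1b and bgnb they were 2.08, 1.58, 1.80 and -1.62, as large or larger in size for all but bgnb. The change of col4a4, well above background on all 6 arrays, went from 1.16 to 0.37. Those of fbln4, lum and lama2, also well above background on all 6 arrays, went from -1.37, -0.68 and -0.73 to -0.63, -0.24 and -0.23, and that of mmp2 from 0.18 to 0.94.

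Control pools varied more than MPLE pools. The median SD over the 43 tested members was 0.70 for the control pools and 0.28 for the MPLE pools, against 0.50 and 0.21 over all probes tested, and 35 of the 43 had the larger SD among controls. Control pool 3 was the highest or lowest of all 6 pools for 24 of the 33 members well above background on all arrays, or 72.7%, against 67.3% of all such probes. It was highest for 14 of the 33, among them fbln4, itgb1bp1, thbs3a, lama2, lamb2, itga5 and itgb7, and 12 of those 14 had negative changes. It was lowest for 10, among them col1a1a, col1a1b, adam12b, mmp25b and loxe3, and all 10 had positive changes. Part of that follows from the sum itself, since control pool 3 enters each change. Without that pool 11 of the 14 were negative and 9 of the 10 positive. Some of these lay close to 0, such as lamb2 at -0.0019, thbs3a at -0.045 and mmp2 at 0.0105. With all pools kept, 40.0% of all probes well above background on all 6 arrays had positive changes. What sets control pool 3 apart was not tested.

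**Figure D4:**
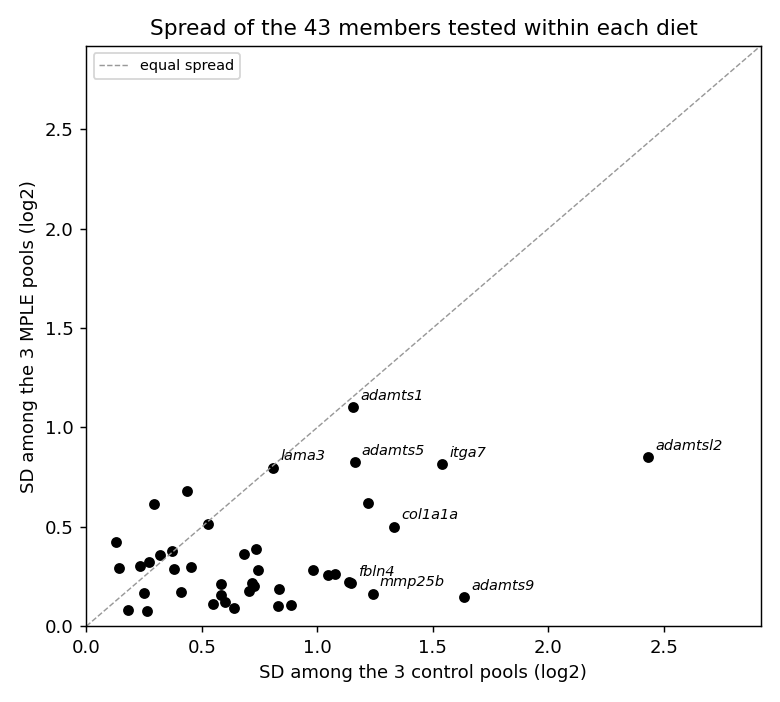
SD of the level among the 3 control pools (horizontal axis, log2) against that among the 3 MPLE pools (vertical axis, log2) for the 43 tested members. Each point is a gene and the dashed line marks equal spread. Of the points, 35 lie below the line, and those of adamtsl2, adamts9 and itga7 lie farthest to the right.

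Markers of other cell types were read beside these members. The summed signal of 5 skeletal muscle genes, relative to the 75th percentile of the array, was 15.8, 11.8 and 48.2 in the control pools against 3.85, 3.88 and 8.32 in the MPLE pools. It was higher in every control pool and highest in control pool 3, where ckmb had the largest signal of the 5. The marker atp2a1l was highest in control pool 1. Of these 5 markers, all well above background on all 6 arrays, 4 were lower at an unadjusted limma p under 0.05. That compares with 6.65% of probes well above background on all 6 arrays. The other tested marker, ampd1, was also lower but entered through the control arrays alone. None passed the adjusted threshold. Examples were casq1b at -2.57 (adjusted p = 0.1) and ckmb at -3.00 (adjusted p = 0.135). The exception, casq1, was at 0.28 (adjusted p = 0.727). The summed signal of 4 endothelial markers was 52.8, 37.3 and 71.7 in the control pools and 38.1 to 39.7 in the MPLE pools, again highest in control pool 3. The fli1 probe had the largest signal of the 4 on every array. Singly, kdr was at -1.13 (adjusted p = 0.272), fli1 at -0.47 (adjusted p = 0.43) and pecam1b at -0.29 (adjusted p = 0.535). By contrast, pecam1a was at 0.63 (adjusted p = 0.397) and was lowest in control pool 3. The summed signal of 2 smooth muscle markers, acta2 and cnn1b, was 4.38 to 6.47 in the control pools and 5.91 to 6.87 in the MPLE pools, with overlap. Such sums hold only genes well above background with a value on all 6 arrays. The sums of the erythroid genes alas2, gata1 and epor and of the thrombocyte genes itga2b and gp9 were also highest in control pool 3. The globin gene hba, left out, read 7.61, 7.09 and 7.86 in the control pools against 8.68 and 8.90 in MPLE pools 1 and 3. The erythroid tfr1a, also left out, was at 0.04 and, unlike that erythroid sum, was lowest in control pool 3, at 5.82. The erythroid slc4a1b, left out too, entered the test through the MPLE arrays alone. It was at 2.22 (adjusted p = 0.205), and at 0.12 after normexp correction. Among single genes, the macrophage marker cd68 was highest in control pool 3, and cd79b (B cell) and cd8a (T cell) were lowest there. The neutrophil sum of csf3r and lyz, without mpx, was lowest there too, as was csf3r but not lyz. The share of any of these cells in the differences of fbln4, bgnb, col1a1b and the laminin genes was not tested.

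Genes that work with these members are given from lists matched by symbol. Collagen folding and processing enzymes had 13 tested genes, all well above background on all 6 arrays, of which 0 passed the adjusted threshold and 0 had an unadjusted limma p under 0.05. The median change of the 13 genes was -0.39, and 11 of 13 were below 0. The median of all probes well above background on all 6 arrays was -0.13, and 40.0% of those probes were above 0. Among the 11 were p4ha2, which hydroxylates collagen, at -0.51 (adjusted p = 0.355) and pcolce2b, an enhancer of collagen processing, at -0.51 (adjusted p = 0.356). The isomerase gene ppib was at 0.46 (adjusted p = 0.412). The summed level of this list was 75.1 to 119 in the control pools and 97.9 to 132 in the MPLE pools. On every array ppib had by far the largest signal in that sum, so the sum mostly follows ppib.

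Integrin adaptors link integrins to actin, and 0 of 7 tested genes passed. The adaptor gene parvg, a parvin of blood cells in mammals, read 2.36, 3.21 and 1.86 in the control pools against 4.11, 4.25 and 4.33 in the MPLE pools. The MPLE pools lay close together above all control pools, with a change of 1.76 (adjusted p = 0.0928). The next genes, tns1b and parvb, were at -0.82 (adjusted p = 0.322) and -0.63 (adjusted p = 0.459). Among other matrix proteins 7 of 21 genes were tested and 0 passed. The basement membrane proteoglycan gene agrn was at -1.68 (adjusted p = 0.16, well above background on 2 of 3 MPLE arrays). The gene ccn1 was at 0.98 (adjusted p = 0.349, well above background on 2 of 3 control arrays). After normexp correction the change of agrn was -1.26 and that of ccn1 was 0.235. The change of ecm1 was -0.35 (adjusted p = 0.549, with control pool 3 dropped from its fit as an outlier spot).

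Matrix receptors and latent TGF-beta genes had 10 tested members, of which 0 passed. At an unadjusted limma p under 0.05, 1 was higher and 3 were lower, against 11.5% and 5.89% of all probes tested. The hyaluronan receptor gene lyve1b, a marker of lymphatic endothelium in mammals, read 0.69, 1.49 and -0.41 in the control pools against 2.57, 3.01 and 2.73 in the MPLE pools. All MPLE pools were above all control pools, with a change of 2.18 (adjusted p = 0.0978). The syndecan gene sdc3 was at -1.46 (adjusted p = 0.137) and smad7, an inhibitor of TGF-beta signalling, at -1.06 (adjusted p = 0.241). The TGF-beta gene tgfb1a, also among the 3 lower, was at -0.89 (adjusted p = 0.256). Of 4 other matrix proteases and inhibitors tested 0 passed, with ctsbb at -1.00 (adjusted p = 0.376), plg at -1.41 (adjusted p = 0.394) and htra1 at -0.26. The plg probe was well above background on 2 of 3 MPLE arrays.

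The remaining 34 members were not tested. Of these, 14 were not well above background on any array, 9 were so on MPLE pool 2 alone, 1 on another single array, and 10 on at least 2 arrays. They were 10 MMPs (mmp11a, mmp14a, mmp14b, mmp17a, mmp20a, mmp20b, mmp23bb, mmp24, mmp25a and mmp28), 6 ADAMTS genes (adamts2a, adamts10, adamts12, adamts13, adamts15a and adamts18), 6 other collagens (col10a1a, col13a1, col17a1b, col20a1, col21a1 and col28a2a), 3 integrin alpha genes (itga3b, itga9 and itga11b) and 9 more, namely itgbl1, loxhd1a, loxl2a, thbs4a, fbln7, col11a1a, col27a1b, lama1 and lamb4. Their levels ran from -8.24 to -1.00. MPLE pool 2, the array with the most spots above background, had 62 of the 77 members well above background, against 44 to 47 in 4 of the other pools and 36 in control pool 3.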

How the data were processed

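Head kidney RNA from 6 pools of Atlantic salmon, 3 for each diet, grouped by title, was read on Agilent arrays with 1 colour. The deposited spot intensity values were, per the file headers, produced with Feature Extraction 10.7.3.1, which corrected background and did not scale between arrays. The deposited series values are log2 of each array's background-subtracted intensity, without scaling. The labels' text also speaks of a reference design, but the files hold 1 colour and were followed. Nothing maps pools to tanks.

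The processed signal was turned to log2, outlier-flagged spots (6 to 205 per array) were left out, and each array's 75th percentile over non-control spots was subtracted. No spot was saturated. The 23130 probes that were well above background on all 3 arrays of either diet were fitted with limma 3.58.1 (lmFit and eBayes, R 4.3.3, diet as the only term, two-sided, Benjamini-Hochberg adjustment, threshold 0.05). The fit was tested on simulated data. The number of arrays limits the precision.

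Accessions of 25641 of 42386 probes matched a RefSeq gene of assembly Ssal_v3.1, used for names only, since no source used here names the build of the probes. Salmon carry many near-identical gene copies, and how far a probe also binds such a copy was not tested. The members and all gene lists were chosen with earlier results of these data known. The text names, for each role group and list of pathway genes, the 3 tested genes with the smallest p. Other genes, and lists of markers other than those named, were added or left after their values were seen. Pool numbers were not used to pair the pools in the chosen fit. Same-numbered pools deviated from their diet means with correlations of -0.177, -0.34 and 0.083 over 22720 probes. Differently numbered pools gave -0.319 to 0.467. Deviations within a diet are tied to each other through their mean, so these values cannot decide whether the pools are paired. Alternatives covered normalization, centring, background correction (normexp on median signals, offset 50, since the files hold medians), the dim-probe filter, outlier spots, the deposited series values, the variance model, array weights, the pool block, adjustment over 1 probe per gene and leaving out each array. With 1 probe per member, averaging probes of a gene changed nothing.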

Additional observations from a re-analysis of the deposited data

Results flagged for a closer look

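The lysyl oxidase gene loxl2a stood outside the diet comparison, since it was not well above background on every array of either diet, yet it was well above background on MPLE pool 2, where its level was -4.42. The highest control level was -4.66. That array also had the most spots and the most members above background, and the part this plays in the signal was not tested.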

How the results depend on the processing

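None of the 43 tested members passed an adjusted limma p of 0.05. That count stayed 0 under all alternatives run except array weights and leaving out a pool. With array weights, 8 members passed (timp2a, col4a4, adam12b, itgb5, adamts9, col1a1b, itga6a and lum), as did 2971 of 23130 probes, or 12.8%. Of these members, itgb5 and adamts9 had entered through the MPLE arrays alone. Leaving out a pool gave 0 to 1, the 1 being adamts9 without control pool 2, its only control array well above background. Of all probes, 108 passed in the chosen fit, 558 with median centring, 475 with the block, 28 with normexp, 19 with quantile normalization, 14 with spike-in centring, 9 with series values, 0 without a filter, 0 without any 1 MPLE pool, and 10, 164 and 169 without control pools 1, 2 and 3. Members higher at an unadjusted limma p under 0.05 numbered 7, or 16.3%, against 11.5% of all probes tested. Of the 7, itgb5, timp3 and adamts9 had entered through the MPLE arrays alone. Members higher numbered 3 with normexp (6.98% against 6.83%) and 2 with spike-in centring (4.65% against 4.02%). Among probes above background on all 6 arrays they numbered 4 (12.1% against 8.73%). Without 1 pool they numbered 5 (MPLE pool 3, 11.6% against 7.1%) to 11 (control pool 1, 25.6% against 14.8%). Members lower numbered 5, or 11.6%, against 5.89% of all probes tested. Of the 5, col4a5 had entered through the control arrays alone. Members lower numbered 2 with series values (4.65% against 1.95%) and 3 with median centring (6.98% against 3.89%). With spike-in centring they numbered 12 (27.9% against 31.6%). Without 1 pool they numbered 2 to 7, the 7 without control pool 2 (16.3% against 10.5%). They numbered 3, 2 and 2 without MPLE pools 1, 2 and 3, against 3.4%, 3.05% and 2.68% of all probes. The median change of 0.20 was 0.47 with series values, -0.094 without a filter, -0.24 with spike-in centring, -0.04 with normexp and 0.12 to 0.29 without 1 pool. With the pool number as a block, 0 members passed, and the median was 0.20. In that fit 10 were higher and 4 lower, or 23.3% and 9.3%, against 10.9% and 4.2% of all probes. Over the 43 tested members, signs turned with array weights for mmp25b (-0.22), itgae.2 (-0.035), col10a1b (-0.36), thbs3a (0.13), mmp2 (-0.27), loxa (-0.069) and adam9a (0.14), and with series values for adam17b (0.22), col10a1b (-0.052), thbs3b (0.22), adam9a (0.63), lama3 (-0.22), lamb2 (0.25) and mmp9 (-0.16). With normexp they turned for mmp30 (-0.28), timp3 (-0.037), col5a2a (-0.20), loxl4 (-0.29), col28a1a (-0.45), col10a1b (-0.76), thbs2a (-0.23), thbs3b (0.015), itga7 (-0.50), lama3 (-0.48), lamb2 (0.091), adam9a (0.53) and mmp9 (-0.14). With spike-in centring they turned for adam10a (-0.31), col5a2a (-0.25), loxl3b (-0.050), col10a1b (-0.23), thbs2a (-0.32), adamts5 (-0.16), lama3 (-0.13), loxa (-0.34), mmp13 (-0.24), mmp2 (-0.26) and mmp9 (-0.41), with quantile normalization for adam9a (0.030), mmp13 (-0.085) and mmp9 (-0.51), and with median centring for mmp9 (-0.0070). Without 1 pool the range crossed 0 for thbs3b (-0.20 to 0.065), thbs2a (-0.0002 to 0.29), adam10a (-0.0066 to 0.24), mmp25b (-0.17 to 1.03), col10a1b (-0.011 to 0.55), adam9a (-0.32 to 0.27), adamts5 (-0.27 to 0.89), lama3 (-0.15 to 0.66), loxa (-0.23 to 0.31) and mmp9 (-0.17 to 0.21). The cause of these shifts was not tested.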
